A study of Mus musculus with 8 samples.

Results

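The genes that make, modify and export Wnt proteins in mouse liver were examined in the groups injected with saline, LPS or LGK974. Members were chosen by name, and 10 of the 23282 rows of the count files belong to them. They are the Wnt ligands Wnt2, Wnt9b, Wnt4, Wnt5a, Wnt5b and Wnt11, the R-spondins Rspo1 and Rspo3, and the secretion genes Porcn and Wls. All groups were livers of C57BL/6 mice, labelled as male and 4 weeks of age, without any engineered allele. The saline group, which the labels call normal, received saline i.p. The LPS group, which the labels call control, received 25 mg/kg lipopolysaccharide (LPS) i.p., a component of the outer membrane of Gram-negative bacteria that causes endotoxemia. For the LGK974 group the sample labels name LGK974 alone. According to the methods of the study, these mice received LGK974 at 60 mg/kg in addition to LPS at 25 mg/kg, with LGK974 given 2 h ahead of LPS in most experiments, and livers were taken 6 h after LPS. LGK974 is a small-molecule inhibitor of the enzyme encoded by Porcn. No group received LGK974 without LPS, so values of the LGK974 group are for both agents together.

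Wnt proteins are secreted ligands that bind Frizzled and LRP receptors on nearby cells. In the endoplasmic reticulum the acyltransferase porcupine (Porcn) attaches a fatty acid to a serine of the Wnt protein, and the carrier Wntless (Wls) then takes the acylated protein to the cell surface. R-spondins bind LGR receptors and remove the ligases ZNRF3 and RNF43, which otherwise clear Frizzled from the membrane. In the liver, endothelial cells of the central vein are a known source of Wnt2, Wnt9b and Rspo3, which maintain the expression program of the surrounding pericentral hepatocytes.

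Of the 8 libraries, 6 were distinct. LPS library 3 was identical to library 1, and library 4 to library 2, across all rows, and duplicates were used once. Each group thus had n = 2. Total counts ranged from 9142116 to 15222439. The sex-linked genes went against the label of male mice. Xist, which is transcribed from the inactive X chromosome of females, had 1171 to 3115 counts in the saline and LPS libraries and 3 and 7 in the LGK974 libraries, whereas the Y-linked gene Ddx3y had 0 counts in each saline and LPS library and 1755 and 1392 in the LGK974 libraries. In both comparisons with the LGK974 group, sex and treatment therefore cannot be told apart. The symbols of 581 rows were out of genomic order, and 0 members were among them. No source used here states how many mice stand behind a library, so p-values measure only the spread between these libraries, which may be technical.

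The lines below show 30 coding bases of each ligand, read from the GENCODE M21 transcripts on GRCm38, with the codon of the acylated serine in capitals, because this codon marks the residue that porcupine modifies.
Wnt2: aagtgtcatggtgtgAGTggctcctgtact
Wnt9b: aagtgccatggtgtgTCAggctcctgtgct
Wnt4: aagtgtcacggggtgTCGggctcctgcgag
Wnt5a: aagtgtcatggagtgTCTggctcctgtagc
Wnt5b: aaatgtcacggagtcTCCgggtcctgcagc
Wnt11: aaatgccatggggtgTCTggctcctgctcc
Coordinates throughout are of GRCm38. The stretches lie on the minus strand at chr6:18008789-18008818 for Wnt2 (exon 4 of 5), chr11:103731164-103731193 for Wnt9b (exon 4 of 4) and chr6:119433797-119433826 for Wnt5b (exon 5 of 5), and on the plus strand at chr4:137296342-137296371 for Wnt4 (exon 5 of 5), chr14:28522512-28522541 for Wnt5a (exon 5 of 5) and chr7:98850257-98850286 for Wnt11 (exon 6 of 7). The same base stood in all 6 genes at 17 of the 30 positions. The serine codon itself varied between the genes.

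Transcripts of the ligands Wnt2 and Wnt4, of the R-spondin Rspo3 and of Porcn were lower in the LPS livers than in the saline livers. Against saline, edgeR's quasi-likelihood test with Benjamini-Hochberg adjustment over 12701 rows called 4 of the 7 members that passed the filter on low counts lower and 0 higher. Of all tested rows, 43.4% were called in either direction, 23.0% lower and 20.4% higher. At an unadjusted p below 0.05, and with DESeq2 or limma-voom, 0 members were higher as well. The LGK974 group differed from the LPS group in Wnt5b, the only member called, which was higher. In that comparison 5.62% of all rows were called, 2.8% higher and 2.82% lower. Against saline, the LGK974 group had higher Wnt5b and lower Wnt2 and Wnt4, where 34.1% of all rows were called, 16.4% higher and 17.7% lower. The median log2 fold change of the 7 tested members was -1.46 for LPS against saline, 1.34 for LGK974 against LPS and 0.14 for LGK974 against saline, beside 0.01, 0.03 and 0.02 over all tested rows. Wnt9b, Wnt11 and Rspo1 did not pass the filter and are given as raw counts. The LPS libraries serve in 2 of these comparisons, and so do the saline and the LGK974 libraries.

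**Figure D1:**
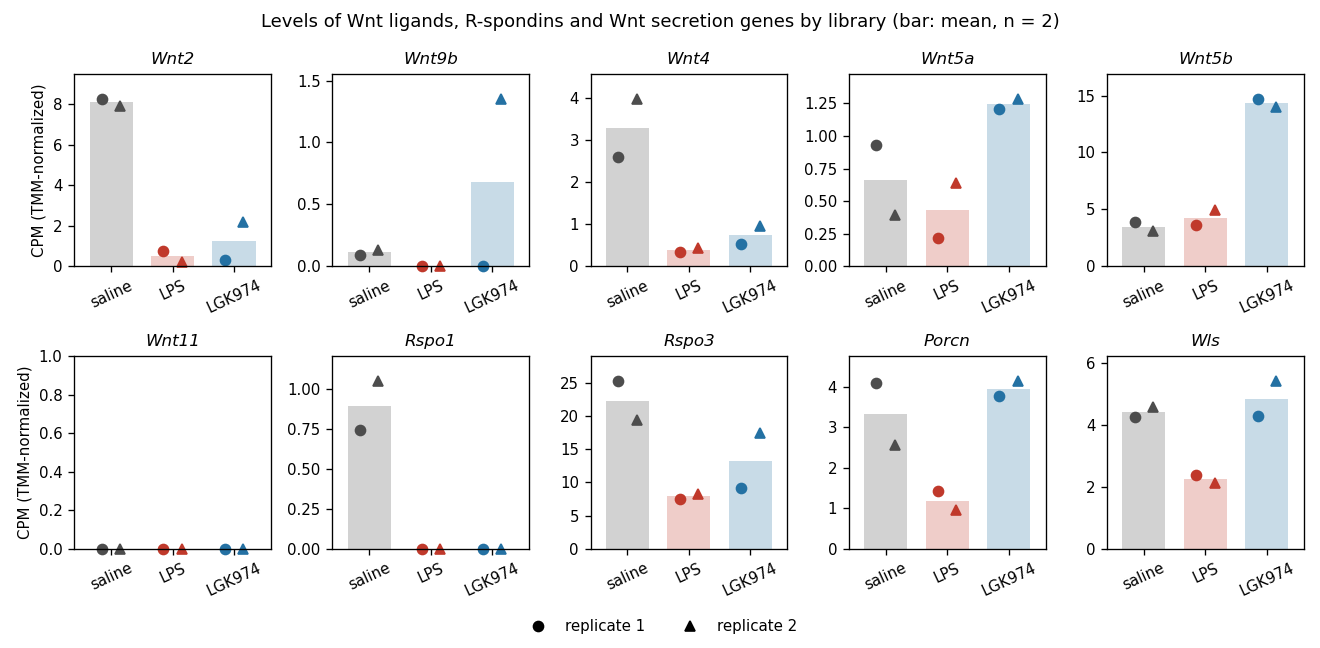
TMM-normalized CPM (vertical axes, a separate linear scale for each gene) of the 10 members in the 6 distinct libraries, by group. Points are libraries and bars are means of 2. Wnt2 fell from 8.26 and 7.91 CPM with saline to 0.764 and 0.213 CPM with LPS, and Wnt5b was at 14.7 and 14.0 CPM in the LGK974 group, above the other libraries.

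Wnt2 was the ligand with the highest counts in the saline livers. Its gene lies on the minus strand at chr6:17988940-18030585. It had 89 and 121 counts in the saline libraries, 7 and 2 in the LPS libraries and 4 and 32 in the LGK974 libraries. The saline libraries stood above all others, while LGK974 library 1 lay between the LPS libraries and LGK974 library 2 above them. In TMM-normalized CPM, which are counts scaled to a common library size, the level was 8.08 ± 0.249 (SD, n = 2) with saline, 0.489 ± 0.389 with LPS and 1.23 ± 1.32 with LGK974. Wnt2 was lower with LPS by a log2 fold change of -4.03 (SE 0.86, 95% interval -5.97 to -2.08, adjusted p = 0.00507). The call was lost without LPS library 2 (log2 fold change -3.38, adjusted p = 0.0516), and the value was -5.12 without LPS library 1. Against LPS, the LGK974 group gave 1.34 (SE 0.92, interval -0.74 to 3.43, adjusted p = 0.422), with -0.67 (adjusted p = 0.717) without LGK974 library 2 and 2.13 (adjusted p = 0.0412) without LGK974 library 1. Against saline, Wnt2 was lower in the LGK974 group by -2.68 (SE 0.74, adjusted p = 0.0208). Here the value was -4.69 without LGK974 library 2 and -1.89 without LGK974 library 1, and the adjusted p was 0.0938 and 0.0865 without saline library 1 or 2.

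Wnt4, which is known for its role in kidney and ovary development, followed the same order of groups. The gene is on the plus strand at chr4:137277489-137299726. The counts were 28 and 61 with saline, 3 and 4 with LPS and 7 and 14 with LGK974. Levels were 3.29 ± 0.982 CPM with saline, 0.377 ± 0.0701 CPM with LPS and 0.738 ± 0.296 CPM with LGK974. Wnt4 was lower with LPS by a log2 fold change of -3.10 (SE 0.71, interval -4.69 to -1.50, adjusted p = 0.00686). This call was lost without LPS library 1, LPS library 2 or saline library 2, with adjusted p = 0.0677, 0.0511 and 0.0663. The LGK974 group was also lower than saline, by -2.14 (SE 0.62, adjusted p = 0.0260), and this call held only where LGK974 library 2 was left out (adjusted p = 0.0263) among the 6 fits without a library, with adjusted p = 0.0510 and 0.0512 without LPS library 1 or 2, 0.0700 and 0.196 without saline library 1 or 2, and 0.0951 without LGK974 library 1. The difference between LGK974 and LPS was 0.96 (SE 0.76, interval -0.75 to 2.66, adjusted p = 0.491).

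Wnt5b behaved differently from Wnt2 and Wnt4. It encodes a ligand known mainly for signaling that does not pass through β-catenin. Its gene lies on the minus strand at chr6:119432531-119544347. The libraries had 42 and 47 counts with saline, 33 and 46 with LPS and 195 and 207 with LGK974. Both LGK974 libraries stood far above the other 4, and the saline and LPS libraries overlapped in CPM. The level was 3.49 ± 0.584 CPM with saline, 4.25 ± 0.921 CPM with LPS and 14.4 ± 0.503 CPM with LGK974. LPS and saline differed by 0.29 (SE 0.34, interval -0.46 to 1.05, adjusted p = 0.508). The LGK974 group was higher than LPS by 1.75 (SE 0.32, interval 1.02 to 2.48, adjusted p = 0.0189), a 3.37-fold difference. It was higher than saline by 2.05 (SE 0.32, interval 1.32 to 2.78, adjusted p = 0.0013). The call against LPS was lost without LPS library 1 (1.52, adjusted p = 0.182) or LPS library 2 (1.99, adjusted p = 0.126), while the call against saline held in all 6 fits without a library, with an adjusted p of 0.000595 to 0.0192. Fbxl14, an F-box gene on the opposite strand, lies within the span of Wnt5b, and how the counting treated strand is not given in the sources used here. Fbxl14 had 77 and 77 counts with saline, 89 and 74 with LPS and 171 and 67 with LGK974, and was not called in any of the comparisons.

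Wnt5a, the closest relative of Wnt5b among the ligands, was near the lower limit of detection. It is transcribed from the plus strand at chr14:28504750-28527448. The counts were 10 and 6 with saline, 2 and 6 with LPS and 16 and 19 with LGK974. The LGK974 libraries were the highest, and the saline and LPS libraries overlapped. The log2 fold change was -0.57 (SE 0.90, interval -2.59 to 1.46, adjusted p = 0.638) for LPS against saline and 1.51 (SE 0.85, interval -0.41 to 3.43, adjusted p = 0.327) for LGK974 against LPS. For LGK974 against saline it was 0.95 (SE 0.78, interval -0.83 to 2.72, adjusted p = 0.386). With 1 library left out, these values ranged from -1.52 to 0.13, from 0.92 to 2.46 and from 0.43 to 1.64, respectively, with the extremes set by leaving out an LPS or a saline library. All 3 intervals of the full fit include 0, so a difference was not detectable with these counts and 2 libraries per group.

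Wnt9b, a ligand of central vein endothelial cells, was barely detected outside 1 library. It is encoded on the minus strand at chr11:103727364-103749821. It had 1 and 2 counts with saline, 0 and 0 with LPS, and 0 and 20 with LGK974. The exact Poisson interval of the 20 counts was 12.2 to 30.9, which covers counting error only, as do the other intervals and limits on raw counts. Set against a floor of 3 counts over the LPS group, Wnt9b was at least 4.41-fold higher in the LGK974 group, but all of its counts there came from LGK974 library 2. Without a filter, edgeR gave an adjusted p of 0.17 for LGK974 against LPS. The same library held most of the Wnt2 counts of its group. Wnt11, a further ligand of the branch outside β-catenin signaling, lies on the plus strand at chr7:98835112-98855195 and had 0 counts in each of the 6 libraries, which allows a level of up to 0.0413 CPM over all of them.

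Rspo3 had the highest counts of the 10 members in all groups except LGK974, where Wnt5b was at a like level. It encodes the R-spondin of central vein endothelial cells. The Rspo3 gene spans chr10:29452416-29535867 on the minus strand. The libraries held 272 and 297 counts with saline, 69 and 78 with LPS and 121 and 258 with LGK974. The saline libraries were the highest and the LPS libraries the lowest, and LGK974 library 2 approached the saline libraries. Levels were 22.3 ± 4.13 CPM with saline, 7.92 ± 0.555 CPM with LPS and 13.3 ± 5.89 CPM with LGK974. Rspo3 was lower with LPS by a log2 fold change of -1.49 (SE 0.34, interval -2.27 to -0.71, adjusted p = 0.00737). This call was lost without LPS library 1 (adjusted p = 0.0638) or saline library 1 (adjusted p = 0.0578). For LGK974 against LPS the value was 0.75 (SE 0.34, interval -0.03 to 1.53, adjusted p = 0.233), with 1.14 (adjusted p = 0.0146) without LGK974 library 1 and 0.20 (adjusted p = 0.732) without LGK974 library 2. For LGK974 against saline it was -0.74 (SE 0.33, interval -1.49 to 0.00, adjusted p = 0.113), with -1.28 (adjusted p = 0.00438) without LGK974 library 2 and -0.35 (adjusted p = 0.383) without LGK974 library 1.

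Rspo1, which amplifies Wnt signaling in the same way as Rspo3, was detected with saline alone. Its gene lies on the plus strand at chr4:124986430-125009099. It had 8 and 16 counts in the saline libraries and 0 in each LPS and LGK974 library. With a floor of 3 counts over a group, the level was at least 5.69-fold lower with LPS and at least 8.6-fold lower with LGK974 than with saline. Without a filter on low counts, edgeR's quasi-likelihood test gave an adjusted p of 0.0469 and 0.0293 for these comparisons. Among the fits with 1 library left out, Rspo1 was not called for LPS without LPS library 1, LPS library 2 or saline library 1. For LGK974 it was not called without saline library 1 or LGK974 library 1. Annotated antisense genes overlap Rspo1, Rspo3 and Wnt5a, and with the strand setting not stated their reads cannot be told apart from those of the members.

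The genes of Wnt secretion were lowest in the LPS livers. Porcn, the acyltransferase that LGK974 inhibits, lies on the minus strand of the X chromosome at chrX:8193848-8206525. It had 44 and 39 counts with saline, 13 and 9 with LPS and 50 and 61 with LGK974. The LPS libraries were below all others, and the saline and LGK974 libraries overlapped in CPM. Levels were 3.32 ± 1.09 CPM with saline, 1.19 ± 0.325 CPM with LPS and 3.95 ± 0.250 CPM with LGK974. Porcn was lower with LPS by a log2 fold change of -1.46 (SE 0.52, interval -2.63 to -0.29, adjusted p = 0.0464). The call was close to the threshold. It was lost with DESeq2 (adjusted p = 0.0501) and limma-voom (0.0859), and without any of LPS library 1 (0.119), LPS library 2 (0.222), saline library 1 (0.233) or saline library 2 (0.0585). The LGK974 group had 1.73 (SE 0.51, interval 0.56 to 2.89, adjusted p = 0.0863) relative to LPS, which did not pass the threshold, and 0.26 (SE 0.46, interval -0.79 to 1.31, adjusted p = 0.701) relative to saline. As Porcn is X-linked and Ddx3y counts were found in the LGK974 libraries alone, the part of sex in its values was not tested.

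Wls, the carrier that brings acylated Wnt proteins to the cell surface, lies on the plus strand at chr3:159839672-159938664. Its counts were 46 and 70 with saline, 22 and 20 with LPS and 57 and 80 with LGK974. As for Porcn, the LPS libraries were the lowest and the saline and LGK974 libraries overlapped. Levels were 4.42 ± 0.216 CPM with saline, 2.27 ± 0.190 CPM with LPS and 4.86 ± 0.786 CPM with LGK974. Neither difference from LPS passed the threshold, with -0.96 (SE 0.41, interval -1.88 to -0.05, adjusted p = 0.0842) for LPS against saline and 1.10 (SE 0.40, interval 0.19 to 2.01, adjusted p = 0.146) for LGK974 against LPS. LGK974 against saline gave 0.14 (SE 0.38, interval -0.72 to 0.99, adjusted p = 0.816).

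**Figure D2:**
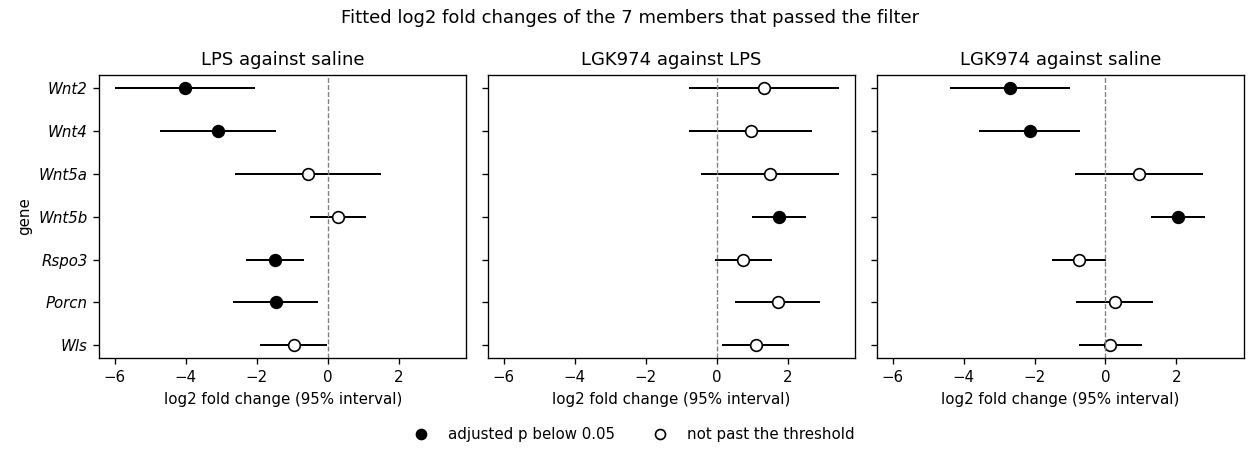
Log2 fold changes (horizontal axes) of the 7 members that passed the filter in the 3 comparisons, from edgeR's quasi-likelihood fit. Lines are 95% intervals, and filled points passed an adjusted p of 0.05. Wnt2, Wnt4, Rspo3 and Porcn are filled to the left of 0 for LPS against saline, and Wnt5b is the filled point for LGK974 against LPS, at 1.75.

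The make-up of the ligand counts changed along with their sum. QuantSeq reads the 3′ ends of transcripts, so a gene's count does not grow with transcript length and counts of different genes were compared without dividing by length. Other differences between genes in how reads are captured or assigned were not measured. The shares and orders below are therefore those of counts. The 6 ligands summed to 15.8 and 15.5 CPM in the saline libraries, 4.91 and 6.18 CPM in the LPS libraries and 16.8 and 19.8 CPM in the LGK974 libraries. The sum was thus similar with saline and LGK974, but it was made of different genes. Wnt2 took 52.4% and 51.1% of the ligand counts in the saline libraries. Wnt5b took 73.3% and 79.3% in the LPS libraries and 87.8% and 70.9% in the LGK974 libraries. In the LPS group the share of Wnt5b was high while its own level was 4.25 CPM, near the 3.49 CPM of the saline group, whereas in the LGK974 group its own level was higher. The order of mean CPM among members was Rspo3, Wnt2, Wls, Wnt5b, Porcn, Wnt4, Rspo1, Wnt5a and Wnt9b with saline, where Wnt5b, Porcn and Wnt4 overlapped, as did Rspo1 and Wnt5a. With LPS it was Rspo3, Wnt5b, Wls, Porcn, Wnt2, Wnt5a and Wnt4, and the last 3 did not differ beyond their spread. With LGK974 it was Wnt5b, Rspo3, Wls, Porcn, Wnt5a, Wnt2, Wnt4 and Wnt9b, where the 2 libraries of Rspo3 lay on either side of the level of Wnt5b, and Wnt5a, Wnt2, Wnt4 and Wnt9b were not resolved, since the libraries of Wnt2 and Wnt9b spread over those of the others.

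**Figure D3:**
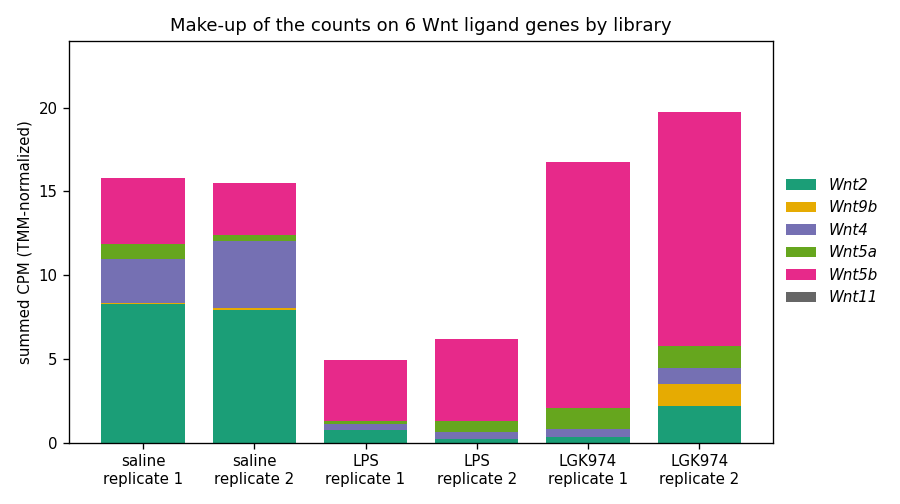
Stacked TMM-normalized CPM (vertical axis, linear from 0) of the 6 Wnt ligands in each distinct library. Wnt2 is the largest segment of the saline bars, the LPS bars reach 4.91 and 6.18 CPM, and Wnt5b fills most of the LGK974 bars, which reach 16.8 and 19.8 CPM. Wnt11 had 0 counts and shows no segment.

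Among the tested members, Wnt2 differed most between the LGK974 libraries. The log2 ratio of LGK974 library 2 to library 1 was 2.49 for Wnt2, and 1.59% of all tested rows had a ratio at least as large in either direction. It was 0.93 for Rspo3 and 0.74 for Wnt4, which is common among these libraries, since 19% and 27.3% of rows reached these sizes. The median absolute ratio was 0.42. Wnt5b, Wnt5a, Porcn and Wls differed less between the 2 libraries, with ratios of -0.07, 0.08, 0.13 and 0.32. Of the 15 tested endothelial markers, 13 were higher in LGK974 library 2 and 2 lower, where 49.6% of all tested rows were higher. Other cell types had such markers too. Among the stellate cell markers in genomic order, Lrat, Hgf, Des, Pdgfrb, Dcn and Rgs5 were higher in library 2 in CPM, and Reln and Colec11 were lower. Among the tested cholangiocyte markers, Sox9 and Spp1 were higher there, and Krt19, Krt7 and Epcam were lower. The part of any of these markers in the values of Wnt2 was not tested. Kdr, a receptor gene of endothelial cells, had 39 and 231 counts in libraries 1 and 2, whereas Clec4g, a lectin gene of sinusoidal endothelial cells, had 29 and 13. The examples Kdr and Clec4g, and the 2 further cell types, were picked after their values had been seen.

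Of the upstream sequences, 7 of the 10 members had an entry in the RefSeq promoter table for GRCm38.p6, with 10 start sites in all, and Wnt5a, Rspo3 and Porcn had none. The lines below show upstream bases of the ligands that changed, as far as they lie outside annotated exons, with a match to the TCF/LEF core in capitals, since TCF/LEF factors carry the nuclear end of β-catenin signaling.
Wnt2: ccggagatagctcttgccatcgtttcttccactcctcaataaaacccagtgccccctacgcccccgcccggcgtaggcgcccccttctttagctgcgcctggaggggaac
Wnt4: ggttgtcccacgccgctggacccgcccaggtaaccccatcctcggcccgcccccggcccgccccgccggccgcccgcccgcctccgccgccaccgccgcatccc
Wnt5b: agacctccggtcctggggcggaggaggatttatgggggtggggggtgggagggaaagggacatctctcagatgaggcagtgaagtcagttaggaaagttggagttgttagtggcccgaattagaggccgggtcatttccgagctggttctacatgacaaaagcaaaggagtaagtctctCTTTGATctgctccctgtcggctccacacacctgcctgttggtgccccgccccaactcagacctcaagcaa
They lie at chr6:18030586-18030695 (minus strand), chr4:137277385-137277488 (plus strand) and chr6:119449387-119449636 (minus strand). For Wnt5b, the window of the most downstream of 3 start sites is shown, because it alone holds a match. It lies within an intron of the longer Wnt5b transcripts. The TCF/LEF core CTTTGAT was searched on both strands in the 250 bases before each start. It was found in 2 of the 10 windows of members, in Wnt5b 71 bases before the start and in Wnt11 on the opposite strand, where 3.21% of 32851 windows of all genes hold it. The GC content of the 250 bases was 63.6% for Wnt2, 85.2% for Wnt4 and 55.6% for the Wnt5b window, beside a median of 52.4% over all windows. The counts do not tell which start sites were used, because the reads come from transcript 3′ ends.

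The other Wnt ligands and R-spondins were close to or at 0. Among the remaining 13 mouse Wnt genes, 0 passed the filter. Wnt9a had 9 and 8 counts with saline, 4 and 5 with LPS and 4 and 3 with LGK974, and Wnt2b had 0 and 8, 2 and 1, and 8 and 1. Wnt3a and Wnt10a had 0 counts in each library, and Wnt10b had at most 1. Rspo2 had 1 count in a single saline library and Rspo4 had none. All 19 Wnt genes together summed to 17.4 and 16.7 CPM with saline, 5.57 and 7.04 CPM with LPS and 17.7 and 20.4 CPM with LGK974, so the ligands named above carried most of the Wnt counts.

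Genes that act beside the members in secretion were not called lower with LPS. All 8 genes of Wnt trafficking passed the filter. With LPS, 2 of them rose, a share near the 20.4% of all tested rows, and 0 fell. Their median log2 fold change was 0.39. These were Tmed2 (0.85, SE 0.19, adjusted p = 0.0062) and Tmed5 (1.33, SE 0.28, adjusted p = 0.00476), which encode cargo receptors between the endoplasmic reticulum and the Golgi. In the LGK974 group, Tmed2 (0.94), Tmed5 (1.19), Vps29 (0.71) and Ykt6 (0.65) were higher than with saline, where 16.4% of all tested rows were higher. Vps29 and Ykt6 were named after their values had been seen. Against LPS, 0 of the 8 passed the threshold, where 5.62% of all tested rows did. The desaturase genes Scd1 and Scd2, whose enzymes make the monounsaturated fatty acid used by porcupine, passed the threshold in no comparison.

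The receptors of R-spondins and the ligases they act on fell with LPS, as did Rspo3. All 4 tested genes of this list were lower with LPS than with saline, with a median of -2.86, where 23.0% of all tested rows were lower. They were the receptors Lgr5 (-3.90, SE 0.79, adjusted p = 0.00372) and Lgr4 (-2.32, SE 0.25, adjusted p = 9.54e-05) and the ligases Rnf43 (-3.39, SE 0.50, adjusted p = 0.000657) and Znrf3 (-1.74, SE 0.41, adjusted p = 0.00849). All 4 were also lower in the LGK974 group than with saline, where 17.7% of all tested rows were lower. Between LGK974 and LPS 0 passed the threshold, where 5.62% of all tested rows did. The values were 0.76 (SE 0.25, adjusted p = 0.105) for Lgr4 and 1.09 (SE 0.53, adjusted p = 0.255) for Rnf43. They were 0.26 (SE 0.42, adjusted p = 0.754) for Znrf3 and -1.31 (SE 1.03, adjusted p = 0.492) for Lgr5. Lgr4 had 455 and 606 counts with saline, 84 and 68 with LPS and 203 and 185 with LGK974. Of the 10 tested Frizzled, LRP and related receptors, 4 fell with LPS and 1 rose, which is also near the 43.4% of all tested rows. Fzd8 (-3.18), Lrp5 (-1.41), Ryk (-1.27) and Lrp6 (-1.06) were lower, the last of which was named after its value had been seen. Ror1, a receptor for Wnt5a, had 0 and 2 counts with saline, 12 and 21 with LPS and 19 and 33 with LGK974 (adjusted p = 0.00696 for LPS against saline by edgeR's quasi-likelihood test).

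Of 14 genes of secreted inhibitors 4 were tested, of which 1 fell and 1 rose with LPS, a share near the 43.4% of all tested rows. Notum, which encodes an enzyme that removes the fatty acid from Wnt proteins, had 390 and 597 counts with saline, 4 and 6 with LPS and 8 and 9 with LGK974. It was lower with LPS by a log2 fold change of -6.10 (SE 0.35, adjusted p = 3.77e-06). Frzb, which encodes a secreted Frizzled-related protein, rose by 1.86 (SE 0.43, adjusted p = 0.00711). Dkk4 did not pass the filter and was picked after its values had been seen, with 0 counts in each saline and LPS library and 19 and 7 counts with LGK974. Among 14 tested genes that Wnt signaling maintains in pericentral hepatocytes, a list that also holds Notum, Lgr5, Znrf3 and Rnf43, 13 were lower with LPS than with saline (median -2.60), where 23.0% of all tested rows were lower. In the LGK974 group 13 were lower than with saline, where 17.7% of all rows were. The exception in both was Glul, the glutamine synthetase gene, with -1.01 (SE 0.43, adjusted p = 0.085) for LPS and -0.85 (SE 0.43, adjusted p = 0.155) for LGK974. Between LGK974 and LPS 0 passed the threshold, although Oat (-0.92, adjusted p = 0.0503), Slc1a2 (-0.75, adjusted p = 0.0637) and Cyp2e1 (0.89, adjusted p = 0.067), named after their values had been seen, came close to it. Axin2, a feedback inhibitor of the pathway, had 48 and 60 counts with saline, 2 and 2 with LPS and 3 and 0 with LGK974. Nkd1, a further feedback inhibitor, was lower with LPS by a log2 fold change of -3.97 (SE 0.53, adjusted p = 0.000372). For LGK974 against LPS, Wnt5b was called higher and none of the 14 tested targets was called, where 5.62% of all tested rows were called. A link between Wnt5b and these targets was not tested.

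**Figure D4:**
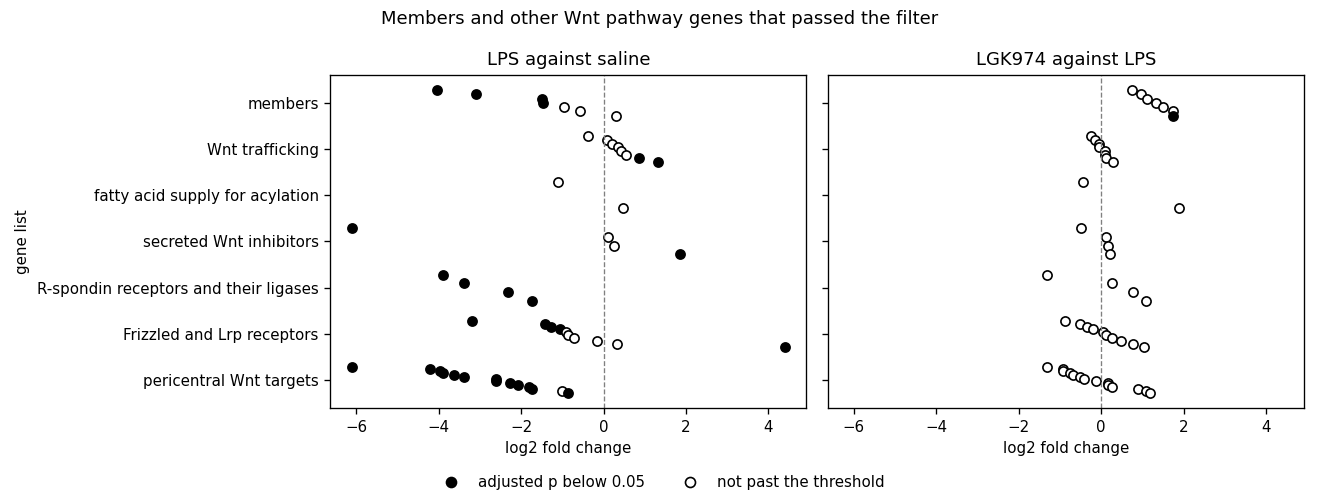
Log2 fold changes (horizontal axes, the same scale in both panels) of the tested members and of the tested genes of 6 other Wnt pathway lists (rows) for LPS against saline and LGK974 against LPS. Each point is a gene, ordered by value within its row, and filled points passed an adjusted p of 0.05. For LPS against saline 13 of 14 pericentral targets are filled, and for LGK974 against LPS Wnt5b is the single filled point.

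Some markers of the cells that could carry these transcripts differed between the groups. Over all tested rows, 43.4% were called for LPS against saline, 23.0% lower and 20.4% higher. The shares called among the markers of Kupffer cells and of cholangiocytes below were near that 43.4%. In bulk liver, fewer cells of a type and less RNA per cell cannot be told apart. In all marker lists, symbols out of genomic order were left out. These were Serpina1a, Ass1, Kit, Ngfr, Ecm1, Cd5l, Csf1r, S100a8, S100a9 and Cxcr2. As labelled, 5 of them (Serpina1a, Ngfr, Ecm1, Cd5l and Csf1r) were called lower with LPS than with saline and 4 (Ass1, Kit, S100a9 and Cxcr2) higher, while S100a8 was not called. Of 15 tested markers of endothelial cells in genomic order, 7 fell and 3 rose with LPS. Their summed level was 488.3 and 478.5 CPM with saline, 560.6 and 548.5 CPM with LPS and 569.4 and 817.6 CPM with LGK974. Lyve1, a receptor of sinusoidal and lymphatic endothelial cells, rose with LPS from 533 and 546 counts to 3298 and 3153. Without it, a choice made after its values had been seen, the sums were 438.8 and 442.9 CPM, 200.8 and 212.4 CPM, and 170.3 and 319.1 CPM. Kdr, the main receptor for vascular endothelial growth factor, had 697 and 988 counts with saline, 8 and 21 with LPS and 39 and 231 with LGK974, and Tek, the angiopoietin receptor, had 0 counts in both LPS libraries. Cdh5, which encodes the cadherin of endothelial junctions, rose with LPS, from 124 and 237 counts to 420 and 451. Markers of stellate cells and fibroblasts summed to 427.1 and 439.1 CPM with saline, 581.5 and 537.1 CPM with LPS and 448.8 and 544.6 CPM with LGK974. Of these 8 genes in order 4 fell and 1 rose with LPS, and most of the sum was Dcn, a matrix proteoglycan gene, which is the gene that rose. Without Dcn the sums were 88.0 and 81.3, 32.7 and 32.2, and 29.97 and 35.7 CPM. Mesothelial markers summed to 5.20 and 3.73 CPM with saline, 1.2 and 1.39 CPM with LPS and 0.604 and 2.30 CPM with LGK974. Neutrophil markers rose from 1.76 and 2.35 CPM with saline to 56.5 and 70.8 CPM with LPS and were at 33.1 and 34.5 CPM with LGK974. The 3 neutrophil markers in genomic order were called higher with LPS than with saline. Markers of Kupffer cells and macrophages summed to 105.0 and 107.2, 149.5 and 134.9, and 96.9 and 130.0 CPM in the same order of groups. Of these 6 genes in order 2 fell and 1 rose with LPS, the latter being Marco, a scavenger receptor gene, and without it the sums were 98.1 and 100.9, 52.9 and 60.4, and 36.0 and 32.8 CPM. Markers of cholangiocytes summed to 29.2 and 29.4, 83.7 and 88.5, and 38.6 and 92.6 CPM. Of 5 tested genes 1 fell and 1 rose with LPS, the latter being the transcription factor gene Sox9, and without it the sums were 19.4 and 21.5, 9.93 and 9.06, and 14.0 and 21.3 CPM. Leaving out Dcn, Marco or Sox9 was chosen after their values had been seen. Hepatocyte markers, at 82096.0 CPM or more in the saline libraries, were at 36190.5 to 53280.6 CPM in the others, and all 6 were detected in each library. Lymphocyte markers summed to 7.33 and 2.29 CPM with saline, 2.73 and 5.22 CPM with LPS and 0.906 and 0.812 CPM with LGK974, and 0 of 3 tested passed the threshold. Between LGK974 and LPS, 2 of the 15 endothelial markers (Tek and Ptprb) were higher and 1 (Clec4g) lower, 1 of the 6 Kupffer cell markers (Clec4f) was lower, and 0 genes in order passed in the other lists. Over all tested rows, 2.8% were higher and 2.82% lower in that comparison. Of the symbols left out, Kit, Ecm1 and Cd5l were called lower in that comparison. The part of these markers in the values of the members was not tested.

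The rows whose pattern was most like that of a member were named for the member with the highest mean CPM of each role. Likeness was the Pearson r of log2(CPM + 1) over the 6 libraries, compared over 12156 rows, and the points share libraries and groups. For Wnt5b the closest rows were Bin1 (0.999), Fhl2, Obp2a, Rps15 and Timm17a (0.985), and 58 rows had an r over 0.95. For Rspo3 they were Vstm4 (0.998), Soga1, Vars2, Zfp503 and Trim14 (0.995), with 313 rows over 0.95. For Wls they were Gpx4 (0.994), Mbd4, Klhl26, Ict1 and Creb3l3 (0.992), with 67 such rows. With 6 libraries in 3 groups, many rows reach such values, and the pattern of Rspo3, high with saline, low with LPS and between them with LGK974, was shared by the most rows of these 3.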

How the data were processed

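Liver transcripts were measured with Lexogen QuantSeq, and the authors deposited, for each of 8 libraries, unnormalized read counts on 23282 rows named by gene symbol. The submitters' processing notes name Bowtie2, edgeR and mm10, whose roles are not given there. The counting program and its use of strand are not given in the sources used here. Identical libraries were counted once, which left 6 with 9142116 to 15222439 counts, at which 1 count is 0.0657 to 0.109 CPM.

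Counts were filtered with filterByExpr, normalized by TMM and fitted with the group as factor in edgeR 4.0.16 (R 4.3.3). Each comparison used edgeR's quasi-likelihood test with Benjamini-Hochberg adjustment over 12701 rows at 0.05. SE and 95% intervals come from that fit, and CPM are mean ± SD. Counts were also simulated for LPS against saline, with 200 changed genes, large shifts and the same spread for every gene. Over 12385 tested genes, 93.3% of the 195 changed genes among them were recovered and 3.7% of calls were false. In the real data 43.4% of rows were called and several members had low counts, so these rates do not carry over to them. Limits of 0 counts use 3 counts. Replicate numbers were not used for pairing.

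Alternatives were other filters, normalizations, DESeq2 1.42.0, limma-voom 3.58.1, all 8 libraries, only the groups compared, the replicate block, each library left out, out-of-order rows left out and Rn45s (4.80 to 9.38% of counts) left out. Members, lists and tests were chosen with earlier results of these data known. All members are named. Other pathway genes were named by the largest changes past the threshold within each list, up to 4 for LPS against saline and up to 2 for each other comparison, and further genes are stated to have been picked after their values had been seen or complete a count.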

Additional observations from a re-analysis of the deposited data

How the results depend on the processing

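Over the alternatives other than leaving out a library, 206 of 215 log2 fold changes kept direction and side of the threshold, and none changed direction. Members called lower with LPS than with saline numbered 1 with at least 10 counts in every library, which left 3 members tested, and 0 were then called lower for LGK974 against saline. For LGK974 against LPS, members called higher were 2 without a filter, with Porcn added (adjusted p = 0.0392), and 3 with all 8 libraries as separate samples, with Porcn (0.00544) and Wls (0.00749) added. Wls was also called lower with LPS there (0.00429), where identical libraries enter as if they were separate. The call of Porcn for LPS against saline was lost with DESeq2 (0.0501), limma-voom (0.0859), library totals (0.0507), and out-of-order rows left out (0.051).

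With 1 library left out, the lone library of a group is assumed to vary like the other groups. Members lower with LPS than saline numbered 1 to 5, higher for LGK974 against LPS 0 to 4, and lower for LGK974 against saline 0 to 3. Calls over all rows moved as well in these fits, from 1801 to 3523, from 23 to 1175 and from 1331 to 2761, respectively, and the fit that gave 4 members (without LGK974 library 1) was the one with 1175. Directions changed within these ranges of log2 fold change, with 5 values reversed in all. They were -1.52 to 0.13 for Wnt5a (LPS against saline), -0.67 to 2.47 for Wnt2 (LGK974 against LPS), and -0.04 to 0.63 for Porcn and -0.04 to 0.29 for Wls (LGK974 against saline). The cause was not tested.

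With the replicate block, members lower with LPS numbered 3, since Porcn was lost (-1.46, adjusted p = 0.0565), and no other call of a member changed. With 2 pairs, and correlations of same-numbered libraries of 0.214, 0.064 and -0.018, the numbers were not shown to pair the samples. Depth limits Wnt5a, Wnt9b, Wnt11 and Rspo1, with at most 20 counts in a library.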
